A study of Drosophila melanogaster with 4 samples.

Results

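The regions described here are all those that the authors called enriched for histone H3 dimethylated at lysine 4 (H3K4me2) on chromosome arm 3R of Drosophila melanogaster. They were taken by their sequence name alone from the deposited region lists of 2 chromatin immunoprecipitation and sequencing (ChIP-seq) libraries. No length or score decided which listed regions of 3R were taken, but the arm was chosen with earlier results of these data known. ChIP replicate 1 had 1109 regions on 3R of 4752 in its list, and ChIP replicate 2 had 1085 of 4701. These are 23.3% and 23.1% of all regions of the libraries, and they held 23.5% and 23.4% of all marked sequence. For comparison, 3R makes up 23.4% of the summed length of the 5 long arms, 2R included. Elsewhere 3R is set beside 2L, 3L and X only, called the other arms below. The arm 2R was not compared, so no ranking given here covers all 5 long arms. The series had 4 samples: 2 immunoprecipitates with an H3K4me2 antibody from Active Motif, and 2 inputs, which are chromatin sequenced without an antibody. All 4 were made from larval nuclei of the wild-type strain Oregon-R-modENCODE in the third instar, with no other genotype and no treatment. Per the labels, the inputs are matched to the immunoprecipitates by replicate number, and no list of the inputs was used here. Material from whole animals mixes many tissues, so a region may be marked in any of them. Nothing in the labels says that the replicates were separate collections, so p-values measure only the spread between these libraries, which may be technical.

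H3K4me2 sits on the tail of histone H3 and is known from many organisms as a mark of promoters and enhancers, mostly those of genes that are active or ready for activation. In the fly, methylation of this lysine is carried out by the enzymes Set1, Trithorax and Trithorax-related. Chromosome 3 has 2 large arms that meet at the centromere, and 3R is the right one. It carries the Hox genes, which give body segments their identity: the RefSeq gene table of release 6 places all 8 of lab, pb, Dfd, Scr, Antp, Ubx, abd-A and Abd-B on 3R. The region lists use the coordinates of FlyBase release 5, in which 3R runs from its centromeric end at position 1 to its telomeric end at 27905053. No gene positions of that release were used here, so regions are given by position only.

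Marked sequence was spread over the whole arm, from its first bases to a last region that ended 5375 bp before the telomeric end in replicate 1 and 5414 bp before it in replicate 2. It came to 4.97 Mb (17.8% of the arm) in replicate 1 and 4.84 Mb (17.3%) in replicate 2, a mean of 17.6% ± 0.334 (SD, n = 2). There were 39.7 regions per Mb in replicate 1 and 38.9 in replicate 2. Replicate 1 was slightly the higher in both measures. The lists hold no read counts, so the depth behind each is unknown.

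Most regions of 3R were a few kb long, and a minority of long ones held much of the mark. Replicate 1 had a median of 3442 bp, with the middle 50% of its regions between 2528 and 5338 bp. For replicate 2 the median was 3376 bp and the middle 50% lay between 2545 and 5245 bp. The shortest had 1301 and 1313 bp, close to the shortest on the other arms, and whether the caller set such a limit is not given in the sources used here. Regions under 2 kb made up 9.80% ± 0.0418 of the regions and 3.66% ± 0.00119 of the marked sequence (SD, n = 2). Those of 3 to 5 kb were the most numerous class, with 30.4% ± 0.277 of the regions. Those from 5 to 10 kb were 21.1% ± 0.448 of the regions and 31.9% ± 0.455 of the marked sequence. Regions of 10 kb or more were 6.52% ± 0.0926 of the regions and 19.7% ± 0.201 of the marked sequence (SD, n = 2).

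The longest domain of 3R was 31.5 kb long in replicate 1, at 7033787 to 7065297. Replicate 2 listed it with 38.1 kb, at 7033739 to 7071863, and replicate 1 had 2 regions with a gap of 108 bp between them over that stretch. No region of 2L, 3L or X was as long: the longest there had 25.4 kb in replicate 1 and 27.9 kb in replicate 2, both on X. The next on 3R were 11165430 to 11190440 (25011 bp in replicate 1 and 25003 bp in replicate 2), 25863555 to 25887116 (23.6 kb in replicate 1 and 23.7 kb in replicate 2), 5578740 to 5600711 (22.0 and 21.9 kb) and 19576350 to 19595752 (19.4 and 19.3 kb), with the coordinates of replicate 1. The remaining 5 of the 10 longest in both replicates were 16.1 to 17.4 kb long in replicate 1. They started at 20045224, 5374374, 5164195, 10709691 and 19745898. Thus 3 of the 10 longest lay between 5 and 6 Mb, and the others were spread over the arm. The window at 5 to 6 Mb held 53 of 1109 regions in replicate 1 and 53 of 1085 in replicate 2. It was singled out with its coverage known, which long regions raise, so this count is only a description.

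Each region also carries a score that the authors gave it, on a scale that the files do not state. Means and differences of the replicates' scores take the lists to share that scale. The highest mean score on 3R belonged to 27568284 to 27576015, with 2.78 in replicate 1 and 2.47 in replicate 2. It was followed by 21875991 to 21886882 (2.67 and 2.51), 17846604 to 17855535 (2.74 and 2.38), 25756813 to 25763424 (2.69 and 2.39) and 11970120 to 11974719 (2.66 and 2.40). The other 5 of the first 10 started at 25623881, 11787707, 27076454, 14847997 and 20156868. These regions were 3.80 to 11.1 kb long by the shorter of the replicate lengths. None of the 10 longest regions was among the 10 of highest score. Lists of 10 out of 1109 or 1085 regions would share few members in any case. The 10 longest had mean scores from 1.27 to 2.40, and the lowest of these belonged to the region at 5164195 to 5181126. Regions of 10 kb or more had the highest median score of the length classes, 2.16 in replicate 1 and 1.94 in replicate 2. Across all regions of the arm, length and score had a Spearman rho of 0.728 in replicate 1 (1109 regions) and 0.730 in replicate 2 (1085 regions). This describes regions that share a library. The median score of 3R was 1.58 in replicate 1 and 1.43 in replicate 2, against 1.57 and 1.44 for 2L, 3L and X together. Of the regions of 3R, 51.1% scored above the list's median in replicate 1 (exact binomial 95% interval 48.1 to 54.1) and 50.2% in replicate 2 (47.2 to 53.2), against 50.6% in each replicate of 2L, 3L and X. These intervals cover counting error only.

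Regions of 3R were unevenly spaced, with many close neighbours and a few long empty stretches. The median gap between neighbours was 7.03 kb in replicate 1 and 7.54 kb in replicate 2. The mean gap, 20.7 kb in replicate 1 and 21.3 kb in replicate 2, was far above the median. Gaps from 500 bp to 5 kb were the largest class, with 35.6% ± 0.674 of all gaps and 3.56% ± 0.143 of the arm (SD, n = 2). Gaps of 100 kb or more were 4.61% ± 0.265 of the gaps, and they took up 27.4% ± 1.05 of the arm (SD, n = 2).

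At the close end of the range, 7.40% of gaps in replicate 1 and 7.01% in replicate 2 were under 500 bp. Such gaps joined 155 regions into 73 runs in replicate 1 and 142 regions into 66 runs in replicate 2. Most runs were pairs, 64 in replicate 1 and 58 in replicate 2. No run had more than 3 regions in replicate 1 or more than 4 in replicate 2. In replicate 2, the run at 4623766 to 4652050 held 4 regions with 27.5 kb marked of 28.3 kb, and that at 8514365 to 8532387 held 4 with 16.8 kb marked of 18.0 kb. Runs were ranked by number of regions and then by span, so pairs are not among those named, whatever their span. Among the runs of 3 regions in replicate 1, that of greatest span lay at 2897591 to 2921756, with 23.6 kb marked of 24.2 kb. It was followed by runs of 3 regions at 4623810 to 4646742 (22.9 kb), 12062782 to 12083584 (20.8 kb), 12465154 to 12481988 (16.8 kb) and 6701531 to 6716580 (15.1 kb). Replicate 2 also had runs of 3 at 2897990 to 2920270 (22.3 kb), 12062959 to 12083518 (20.6 kb) and 12465135 to 12482130 (17.0 kb). The replicates did not always divide a domain in the same way: 24 regions of replicate 1 each covered 2 or more regions of replicate 2, and 24 of replicate 2 did so for replicate 1. The widest gap between the pieces was under 500 bp in 20 of the regions of replicate 1 and in 23 of those of replicate 2.

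At the sparse end, 49 stretches of over 100 kb held no region in either replicate, and together they made up 26.7% of 3R. The longest ran from 23815211 to 24149296 (334 kb). It was followed by 23118501 to 23381304 (263 kb), 18609231 to 18870849 (262 kb), 12979192 to 13204880 (226 kb), 17962067 to 18181608 (220 kb), 16156097 to 16368524 (212 kb) and 3375340 to 3586546 (211 kb). The remaining 3 of the 10 longest, at 6784757, 24168218 and 19298612, were 195 to 197 kb. Of these 10 stretches, 3 lay between 23 and 25 Mb. The authors' combined list of both replicates placed 1 region in the seventh and 1 in the eighth, and 0 in the other 8.

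**Figure D1:**
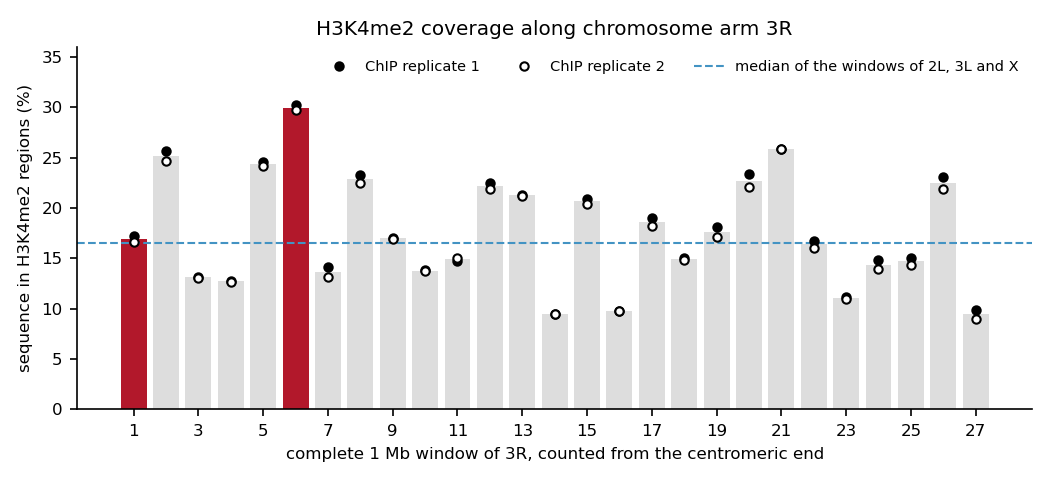
Sequence in H3K4me2 regions (%) in the 27 complete 1 Mb windows of 3R, counted from the centromeric end, with bars at the mean of 2 replicates and circles at each replicate. The red bars are the window at the centromeric end (16.9%) and the densest window (30.0%), and the dashed line is the median of the 69 windows of 2L, 3L and X (16.5%).

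Coverage varied several times over along the arm, as the plot of covered share by window shows, and the replicates traced the same profile. Over the 27 complete windows of 1 Mb the mean covered share ran from 9.40% to 30.0%, with a median of 16.9% and an SD over windows of 5.53. The replicates differed by at most 1.26 percentage points in a window. Replicate 1 was the higher in 25 of the 27. The 5 windows with the most mark were 5 to 6 Mb (30.2% in replicate 1 and 29.7% in replicate 2), 20 to 21 Mb (25.9% in each), 1 to 2 Mb (25.7% and 24.7%), 4 to 5 Mb (24.5% and 24.2%) and 7 to 8 Mb (23.3% and 22.4%). Of these 5 windows, 4 lie in the 8 Mb nearest the centromere. The 5 with the least were 26 to 27 Mb (9.82% and 8.99%), 13 to 14 Mb (9.44% and 9.47%), 15 to 16 Mb (9.80% and 9.77%), 22 to 23 Mb (11.2% and 10.9%) and 3 to 4 Mb (12.8% and 12.6%). The rest of the arm, from 27000001 to its telomeric end, had 16.6% covered in each replicate, so the sparse window at 26 to 27 Mb did not reach the end of the arm.

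Windows with more mark had both more regions and longer ones. The number of regions with their midpoint in a window ran from 23 to 53 in replicate 1 and from 23 to 57 in replicate 2, and the mean length from 3383 to 5707 bp and from 3307 to 5606 bp. Across the 27 windows, covered share had a Pearson r of 0.930 with the number of regions and 0.729 with their mean length in replicate 1, and 0.933 and 0.759 in replicate 2. These are descriptions over windows of the same library, and covered share is made of number and length by construction. Number and length themselves had an r of 0.439 in replicate 1 and 0.487 in replicate 2. At a finer scale of 100 kb, 26 of 279 windows (9.32%) held no mark in either replicate, and 21 had over 40% covered. The densest of these were 11100001 to 11200000 (65.2% in each replicate), 1400001 to 1500000 (63.6% and 63.5%) and 5500001 to 5600000 (58.6% and 55.9%).

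The window from 5 to 6 Mb (5000001 to 6000000) had the highest coverage of all 96 complete windows of 3R, 2L, 3L and X, and it was singled out with that value known, so its rank is a description with no test. It held 53 regions in each replicate. By the mean of the replicates this was the sixth highest number of the 96 windows, a place shared with 1 to 2 Mb of 3L. The window's regions had a mean length of 5657 ± 71.3 bp (SD, n = 2), the fifth highest. The median gap inside it was 4.36 kb in replicate 1 and 4.57 kb in replicate 2, against 7.03 and 7.54 kb over the whole arm. In replicate 1, 20 of its regions were 5 kb or longer and made up 64.1% of its mark. In replicate 2 it was 17 regions and 61.2%. These were 37.7% and 32.1% of the window's regions, against 28.0% and 27.2% over the arm. Over the arm, regions of 5 to 10 kb held 32.2% of the mark and those of 10 kb or more 19.8% in replicate 1. In replicate 2 these shares were 31.6% and 19.6%. Covered share is made of number and length, so singling out this window with its coverage known partly fixed such a difference. The median score in the window was 1.68 in replicate 1 and 1.47 in replicate 2, against 1.58 and 1.43 over the arm.

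Within the window, the mark was uneven. Of its 10 windows of 100 kb, the sixth had 58.6% covered in replicate 1 and 55.9% in replicate 2, the fourth had 51.8% and 52.2%, and the tenth had 38.4% and 38.5%. The eighth had only 5.37% and 4.91%, less than any other. The longest gap, 64.3 kb in replicate 1, lay from 5094445 to 5158717, near the low end. Between 5323120 and 5420447 lay 6 regions of 5 kb or more in both replicates, at 5323120 to 5329134, 5333859 to 5344825, 5352452 to 5361501, 5374374 to 5391727, 5394387 to 5405836 and 5411897 to 5420447. The longest of these 6 had 17.4 kb in replicate 1 and 17.0 kb in replicate 2. A further cluster followed at 5523936 to 5531975 (8.04 kb), 5578740 to 5600711 (22.0 kb) and 5615114 to 5621192 (6.08 kb). The highest score of the window belonged to 5224039 to 5231922, with 2.52 in replicate 1 and 2.26 in replicate 2. Near the low end lay 5060367 to 5066697 (6.33 kb), 5082541 to 5090297 (7.76 kb) and 5164195 to 5181126 (16.9 kb). Further regions of 5 kb or more lay at 5450450 to 5459371 (8.92 kb), 5866061 to 5880175 (14.1 kb), 5907161 to 5916597 (9.44 kb) and 5918589 to 5925168 (6.58 kb), all with the coordinates and lengths of replicate 1. A further 3 regions reached 5 kb in replicate 1 alone, at 5260287 to 5265986 (5.70 kb), 5533960 to 5539117 (5.16 kb) and 5570342 to 5575906 (5.57 kb). The region at 5866061 was shorter in replicate 2, with 10.4 kb, and that at 5082541 was longer, with 11.9 kb.

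The mark was sparse directly at the lower edge of the window, where 4900001 to 5000000 had 2.48% covered in replicate 1 and 2.87% in replicate 2, and dense again below it, where 4800001 to 4900000 had 57.5% and 55.4%. The preceding window, 4 to 5 Mb, was the fourth densest of the arm, and a window from 4.5 to 5.5 Mb had 29.1% ± 0.0112 covered (SD, n = 2). On the other side coverage dropped off: a window from 5.5 to 6.5 Mb had 19.9% ± 0.928, and 6 to 7 Mb had 13.6% ± 0.698 (SD, n = 2). In a check added after the values had been seen, the 1 Mb window was moved along each arm in steps of 10 kb. The densest position on 3R was then 4620001 to 5620000, with 32.9% ± 0.227 covered (SD, n = 2). On X it was 15340001 to 16340000 with 34.3% ± 0.209, on 2L 31.4% ± 0.0988 and on 3L 27.9% ± 0.316 (SD, n = 2). With free window edges, the densest 1 Mb of these 4 arms was therefore on X and not on 3R.

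**Figure D2:**
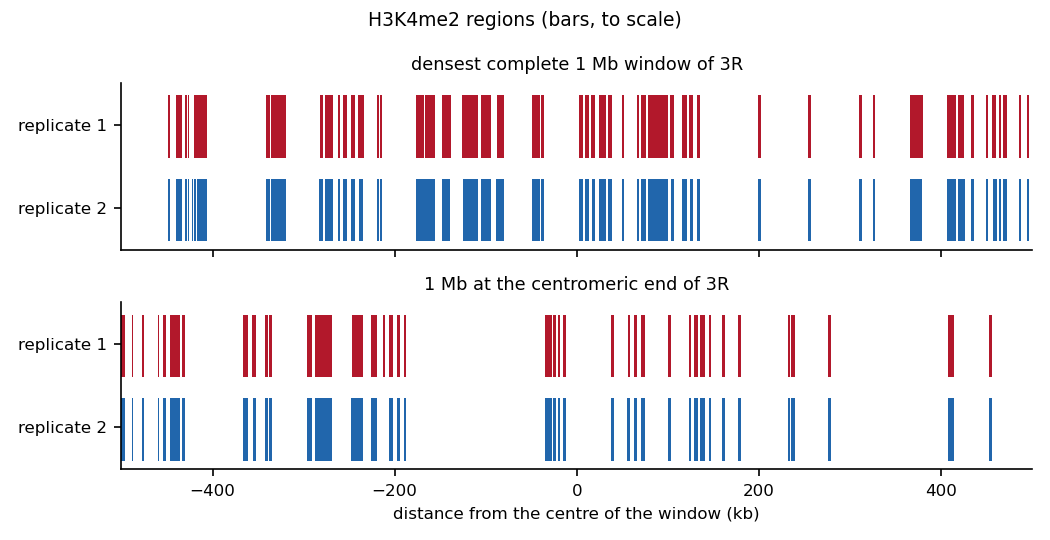
H3K4me2 regions in the densest complete window of 3R (upper panel) and in the 1 Mb at its centromeric end (lower panel), drawn to scale against the distance from the centre of each window (kb), with replicate 1 above replicate 2. The upper panel holds 53 regions in each replicate and the lower panel 42 in replicate 1 and 40 in replicate 2, with an empty stretch of 152 kb left of its centre.

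The centromeric end of 3R was marked from its first bases, unlike the centromeric ends of 2L, 3L and X. That of 2R was not compared. The first region ran from 4 to 3563 in replicate 1 (score 1.73) and up to 3423 in replicate 2 (score 1.55), whose deposited start of 0 was read as 1. On the other arms the outermost region at the centromeric end stopped 41.8 kb before the end on 2L, 11.0 kb on 3L and 5.82 kb on X in replicate 1. In replicate 2 these distances were 41.7, 10.9 and 5.82 kb. The first 100 kb of 3R had 27.0% covered in replicate 1 and 26.3% in replicate 2. The last 100 kb toward the centromere had 9.31% and 9.85% on 2L, 2.57% in each replicate on 3L, and 5.31% and 5.30% on X.

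Over the first 1 Mb, 3R had 17.2% covered in replicate 1 and 16.6% in replicate 2, close to the 17.8% and 17.4% of the rest of the arm. The corresponding end had 6.93% and 6.88% on 2L, 1.60% in each replicate on 3L, and 6.68% and 6.61% on X. The values of 3R lie above all of these without overlap. The difference of 3R was 10.0 ± 0.378 percentage points from 2L, 15.3 ± 0.408 from 3L and 10.3 ± 0.361 from X (SD, n = 2), each far larger than the spread between replicates. An exact two-sided permutation test over 2 values against 2 gave p = 0.333 for each, the smallest that this design allows. The difference reached into the second Mb, with 25.2% ± 0.727 covered on 3R, 12.0% ± 0.321 on 2L, 7.38% ± 0.0390 on 3L and 9.12% ± 0.0491 on X (SD, n = 2). In the third Mb, 3R had 13.1% ± 0.0510, above 3L with 10.9% ± 0.624 but below 2L with 14.0% ± 0.417 and X with 20.5% ± 0.731 (SD, n = 2).

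**Figure D3:**
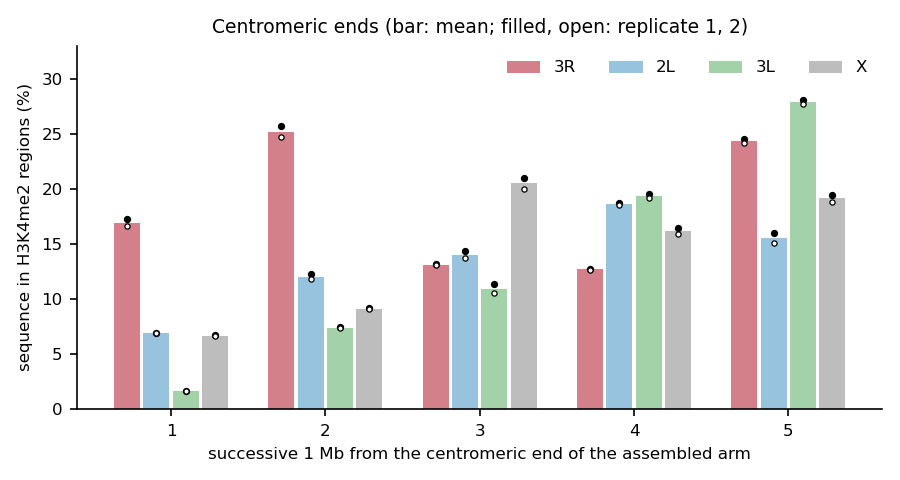
Sequence in H3K4me2 regions (%) in the 5 successive 1 Mb windows from the centromeric end of 3R, 2L, 3L and X, with bars at the mean and circles at replicate 1 (filled) and replicate 2 (open). In the first window 3R had 16.9%, against 6.91% on 2L, 1.60% on 3L and 6.65% on X, and from the third window on it was no longer the highest.

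The mark at this end lay in several clusters of regions. There were 42 in replicate 1 and 40 in replicate 2, against 24 and 22 on 2L, 6 in each on 3L and 21 in each on X. In replicate 1 these 42 regions had a median of 3048 bp, against 3442 bp over the arm. The median of the 40 in replicate 2 was 3022 bp, against 3376 bp over the arm. The median score was 1.57 in replicate 1 and 1.49 in replicate 2, against 1.58 and 1.43 over the arm. The densest 100 kb was 200001 to 300000, with 50.1% covered in replicate 1 and 47.9% in replicate 2. It held the longest domains of this end, 212597 to 231697 in replicate 2 (19.1 kb), which replicate 1 listed as 212584 to 218155 (5.57 kb) and 218246 to 231640 (13.4 kb), and 252647 to 265570 (12.9 kb in replicate 1 and 12.7 kb in replicate 2). The region at 252647 had the highest score of this end, 2.35 in replicate 1 and 2.03 in replicate 2. Other regions of 5 kb or more lay at 53050 to 64269 (11.2 kb), 132996 to 139152 (6.16 kb), 203898 to 209207 (5.31 kb), 274324 to 280668 (6.34 kb), 635441 to 640998 (5.56 kb) and 907350 to 914269 (6.92 kb) in replicate 1. Between these clusters, 312602 to 464924 lay in no region of either replicate, and the 100 kb from 800001 had no mark at all.

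Heterochromatic sequence kept apart from the arm carried little mark. In release 5 it forms a separate scaffold, 3RHet, of 2.52 Mb. It had 8 regions in each replicate and 0.919% of its sequence covered in replicate 1 and 0.908% in replicate 2. The corresponding scaffold of 3L had 16 regions in each replicate, covering 1.75% and 1.82%. How many bases lie between the assembled end of each arm and its centromere is not known from these files, so the ends compared need not lie at equal distances from it. How much of each end can be aligned uniquely was not tested.

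Seen over larger parts of the arms, when each arm was cut into 3 equal parts, the part of 3R nearest the centromere was its most marked, with 19.4% ± 0.336 covered, against 16.6% ± 0.230 in the middle part and 16.7% ± 0.436 in the distal part (SD, n = 2). On 3R the values of the middle and distal parts overlapped between replicates. The part nearest the centromere had the lowest mean on 2L (11.5% ± 0.240), on 3L (14.2% ± 0.270) and on X (17.3% ± 0.312; SD, n = 2), where the middle part was close to it with 17.6% ± 0.0750 (SD, n = 2). The distal part was the most marked, with 18.6% ± 0.325 on 2L and 17.3% ± 0.350 on 3L (SD, n = 2), and with 18.4% and 18.3% in the replicates of X.

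**Figure D4:**
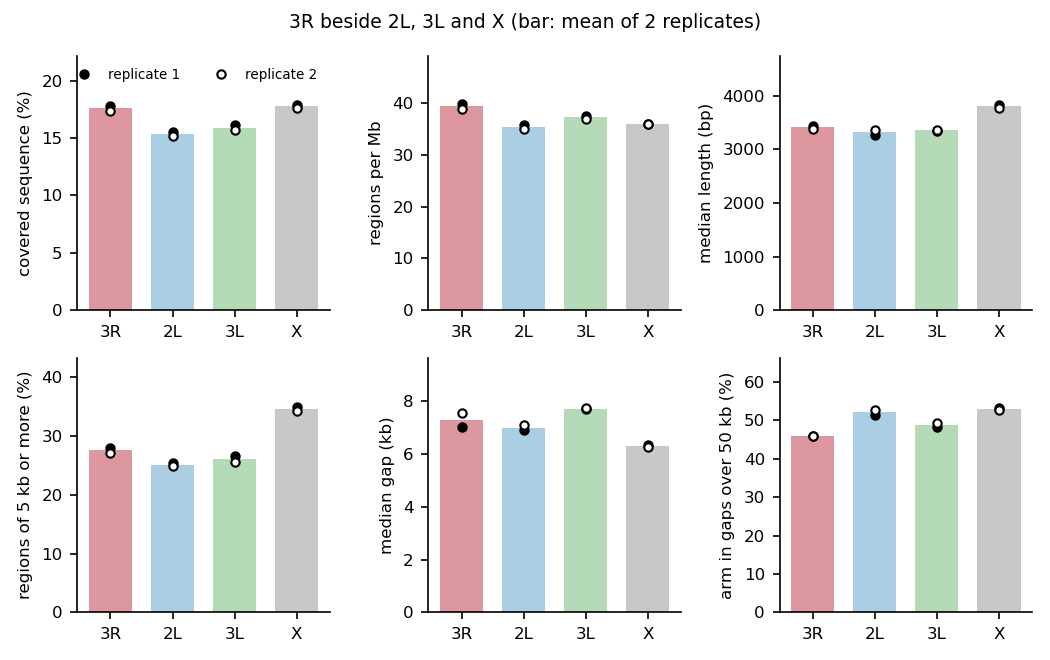
Covered share (%), regions per Mb, median region length (bp), share of regions of 5 kb or more (%), median gap (kb) and share of the arm in gaps over 50 kb (%) for 3R, 2L, 3L and X, with bars at the mean of 2 replicates and circles at each replicate. Among these arms, 3R had the highest number of regions per Mb (39.3) and the lowest share of the arm in gaps over 50 kb (46.0%). X had the highest median length and the highest share of regions of 5 kb or more.

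Against 2L, 3L and X as a whole, 3R had more regions per Mb, with lengths nearer to those of 2L and 3L than to those of X. It had 39.3 ± 0.608 regions per Mb, against 35.4 ± 0.553 on 2L, 37.2 ± 0.317 on 3L and 35.9 ± 0.0315 on X (SD, n = 2). The difference from these 3 arms pooled was 3.13 ± 0.305 regions per Mb (SD, n = 2), and both values of 3R lay above all those of these 3 arms. The density of regions on 2R was not compared. Covered share was higher on 3R than on 2L, by 2.26 ± 0.0840 percentage points, and than on 3L, by 1.69 ± 0.0436 (SD, n = 2). From X it differed by less than the spread between replicates, at -0.158 ± 0.165 percentage points (SD, n = 2). X had fewer and longer regions: 27.6% ± 0.540 of regions had 5 kb or more on 3R, against 34.7% ± 0.497 on X, 25.2% ± 0.301 on 2L and 26.1% ± 0.785 on 3L (SD, n = 2).

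In spacing, 3R had less of its length in gaps over 50 kb than 2L, 3L and X. Gaps over 50 kb took up 46.0% of 3R in each replicate, against 51.4% and 52.7% of 2L, 48.2% and 49.2% of 3L, and 53.3% and 52.8% of X. The difference from the 3 arms together was -5.21 ± 0.470 percentage points (SD, n = 2). The number of gaps over 100 kb showed no such separation: 3R had 18.1 ± 0.760 per 10 Mb, against 19.8 ± 0.307 on 2L, 17.7 ± 0.864 on 3L and 18.7 in each replicate of X (SD, n = 2), and its values overlapped those of 3L and of the 3 arms together. The difference in gaps over 50 kb did not hold when only regions scoring above their list's median were kept, where it was 0.171. The median gap of 3R differed from that of the 3 arms together by 0.184 ± 0.394 kb, and the share of gaps under 500 bp by -0.522 ± 0.415 percentage points (SD, n = 2). In both measures the values of 3R overlapped those of the 3 arms together. Regions in runs with gaps under 500 bp were 13.5% ± 0.629 of those on 3R, against 12.8% ± 0.754 on 2L, 12.8% ± 1.05 on 3L and 18.4% ± 1.74 on X (SD, n = 2).

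**Figure D5:**
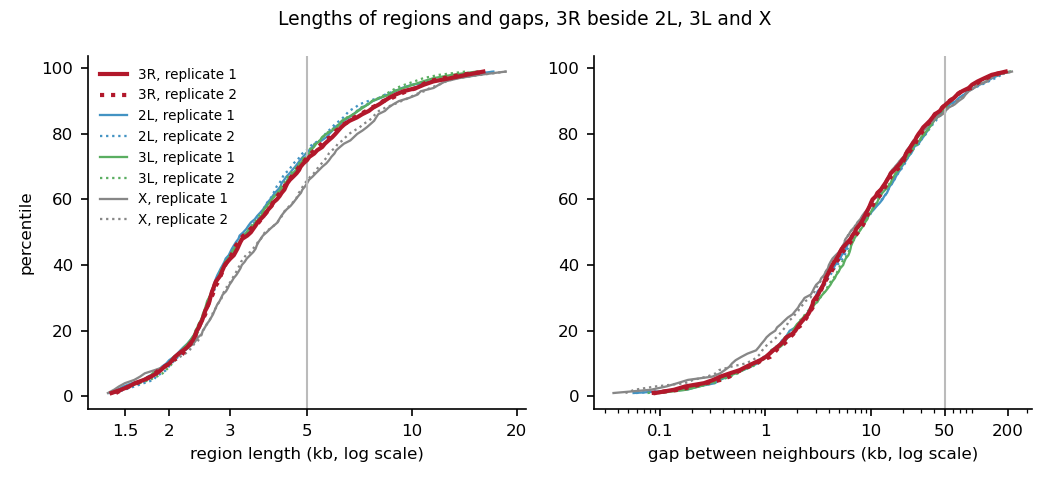
Percentiles of region length (kb, left) and of the gap between neighbouring regions (kb, right), on log axes, for 3R, 2L, 3L and X, with replicate 1 solid and replicate 2 dotted. The grey lines mark 5 kb and 50 kb. The lengths of 3R lie near those of 2L and 3L and below those of X over most of the range, and the gap curves of the 4 arms lie close together.

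In all, 10 measures of 3R were compared with 2L, 3L, X and these 3 arms as a whole. Of these 40 comparisons, 33 had the smallest exact two-sided permutation p that 2 replicates against 2 allow, 0.333 (Benjamini-Hochberg adjusted p = 0.404), so none could pass a threshold of 0.05. That test takes the arms as independent samples, although both arms of a comparison come from the same 2 libraries. With the arms paired by library, the difference had the same sign in both libraries in 39 of the 40 comparisons, and the smallest exact two-sided permutation p that 2 pairs allow was 0.5. The differences are therefore read against the spread between replicates only, which does not cover variation between animals. The lowest of the 27 windows of 3R had 9.40% covered, against 3.89% on 2L, 2.45% on 3L and 8.46% on X. The share of windows with under 10% was nearly the same, 3 of 27 on 3R and 8 of 69 on the other arms. Relative to genes, 3R was not the densest of these arms. Regions were counted here per 100 protein-coding genes that the release 6 RefSeq table places on the arm. For every arm, regions of its heterochromatic scaffold were counted in. On this measure 3R had 32.5 ± 0.499, against 30.8 ± 0.452 on 2L, 33.9 ± 0.284 on 3L and 36.8 ± 0.0644 on X (SD, n = 2).

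The replicates marked nearly the same sequence of 3R. They shared 4.70 Mb, which was 91.8% of what either marked, against 91.4% on 2L, 91.3% on 3L and 90.1% on X. Of the regions of replicate 1, 1061 of 1109 overlapped a region of replicate 2 by at least 1 bp (95.7%, exact binomial 95% interval 94.3 to 96.8), and of those of replicate 2, 1062 of 1085 overlapped one of replicate 1 (97.9%, 96.8 to 98.7). In 993 cases the match was one-to-one. The edges of these pairs differed by a median of 60.5 bp, and 90% of them by up to 299 bp. Replicate 1 had the higher score in 855 of the 993 pairs, with a median difference of 0.171, and the scores had a Spearman rho of 0.978 across pairs.

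The regions of 3R found in a single replicate were short and of low score. In replicate 1 there were 48, with a median of 1661 bp, and the regions with a counterpart had 3560 bp. Their scores had a median of 0.444, and the regions with a counterpart 1.62. In replicate 2 there were 23, whose medians were 1571 bp and a score of 0.384, and the regions with a counterpart had 3441 bp and 1.45. The longest had 3130 bp in replicate 1 and 2037 bp in replicate 2. The 3 of highest score in replicate 1 were 25977448 to 25978980 (0.703), 16974923 to 16976601 (0.675) and 11361049 to 11363307 (0.630). In replicate 2 they were 11831442 to 11833313 (0.519), 20811139 to 20812645 (0.498) and 2927983 to 2930019 (0.470). All 6 were also in the authors' combined list.

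That combined list had 1151 enriched regions on 3R, covering 19.1% of the arm, and no depleted one. Of these, 1016 (88.3%, exact binomial 95% interval 86.3 to 90.1) overlapped regions of both replicates, 45 matched a region of replicate 1 alone and 21 one of replicate 2 alone. The remaining 69 (5.99%, 4.69 to 7.53) matched no replicate region, and 66 of them were under 2 kb long. Their median was 1253 bp, with a score of 0.320, whereas those found in both replicates had 3850 bp and a score of 1.48.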

How the data were processed

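The data were the authors' deposited lists of enriched regions in GFF3 format, 1 for each of 2 H3K4me2 immunoprecipitates and 1 combined list, which was used as a pooled value with no error. Per the submitters' processing notes, the aligner was Bowtie 0.12.7. Coordinates follow FlyBase release 5, per the file headers. The inputs have no list here. The score of each region is the authors' deposited score, on a scale the files do not state. The region caller, its threshold and its length limits were not given in the sources used here. There are no read counts, so depth is unknown.

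Regions were taken by sequence name, and a deposited start of 0 was read as 1. Covered shares used the sequence lengths in the file headers, gaps were the bases between neighbouring regions of a list, and regions matched when they shared at least 1 bp. Mean and SD are over 2 replicates, and arms were compared by exact two-sided permutation tests over 2 values against 2 with Benjamini-Hochberg adjustment. Named regions were the 10 longest and the 10 of highest mean score in both replicates, and the 10 longest unmarked stretches. The 5 most and 5 least covered windows were named, as were the first 5 runs by number of regions and then span. All regions of 5 kb or more in either replicate were named in the windows at 5 to 6 Mb and at the centromeric end. The 3 unmatched regions of highest score in each replicate were named too. The 3 densest windows of 100 kb were named after their values were seen. The members, windows and limits were chosen with earlier results of these data known. Alternatives were the combined list, only regions above their list's median score, joining of close regions, other limits and window edges, and leaving out a replicate. Those for differences between arms, the pairing of arms by library and the densest window in steps of 10 kb were added once the data had been seen. The code was checked on simulated lists. It ran under matplotlib 3.10.9, pandas 2.3.3, scipy 1.17.1, numpy 2.4.6 and Python 3.11.15. The RefSeq gene table, of release 6, served only for the arm of each gene.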

Additional observations from a re-analysis of the deposited data

How the results depend on the processing

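Pairing the arms by library (a replicate block) cannot change the mean differences of 3R from 2L, 3L and X. These were 1.28 percentage points in covered share, 3.13 regions per Mb, -5.21 percentage points in gaps over 50 kb and 11.9 in the centromeric 1 Mb. With pairing, each had an exact two-sided permutation p = 0.5, the smallest that 2 pairs allow. Of 38 alternative values for 12 results, 5 moved by less than the SD between replicates, 32 by more and 1 changed sign. Of 6 for the 2 measures of overlap between replicates, 2 stayed within the exact binomial interval and 4 did not. The cause of these moves was not tested. For shared sequence the interval, 91.7% to 91.8%, counts each base as a separate trial. Bases of the same region are not independent, so that interval is too narrow to judge a move in shared sequence. With the combined list, 3R had 19.1% covered, 41.2 regions per Mb, a median length of 3460 bp, 29.6% of regions of 5 kb or more, a median gap of 6.54 kb, 7.74% of gaps under 500 bp, 31.9% covered at 5 to 6 Mb and 18.0% in the centromeric 1 Mb. With only regions above their list's median score, these values were 11.6%, 19.9, 4674 bp, 44.9%, 13.5 kb, 4.94%, 21.7% and 11.2%. With regions under 500 bp apart joined, there were 36.5 regions per Mb, a median of 3637 bp, 31.2% of 5 kb or more and a median gap of 8.53 kb. A limit of 3 kb for long regions gave 58.0%, and one of 1 kb for close gaps gave 11.8%. The 5 to 6 Mb window had 29.1% when placed 500 kb lower, 19.9% when 500 kb higher and 32.9% at its densest start. The centromeric end had 22.8% over 500 kb and 21.1% over 2 Mb. The difference of 3R from 2L, 3L and X changed sign in the share of the arm in gaps over 50 kb, at 0.171 above the median score, against -4.64 with the combined list. Above the median score it was 0.710 for covered share, 1.62 for regions per Mb and 8.72 for the centromeric 1 Mb, which had 12.6 with the combined list. Sequence shared by the replicates was 85.9% above the median score and 91.9% after joining, and regions of replicate 1 matched in 90.8% above the median score and in 92.9% when 50% of both regions had to overlap.

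With 2 replicates, leaving out a replicate returns the value of the other, so these ranges repeat the replicate values and are no further check. Leaving out a replicate gave 17.3% to 17.8% (covered share), 38.9 to 39.7 (regions per Mb), 3376 to 3442 bp (median length), 27.2% to 28.0% (regions of 5 kb or more), 7.03 to 7.54 kb (median gap), 7.01% to 7.40% (gaps under 500 bp), 29.7% to 30.2% (5 to 6 Mb) and 16.6% to 17.2% (centromeric 1 Mb). The differences of 3R from the other arms were then 1.22 to 1.35 (covered share), 2.91 to 3.34 (regions per Mb), -5.55 to -4.88 (gaps over 50 kb) and 11.6 to 12.1 (centromeric 1 Mb).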
